A study of Mus musculus with 20 samples.

Results

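The 10 genes described here, Nqo1, Gclc, Gclm, Hmox1, Txnrd1, Srxn1, Gsta1, Gsta2, Gsta4 and Gstm3, encode antioxidant and glutathione enzymes that the transcription factor NRF2 is known to control. The set is defined by gene name and not by a threshold on measured values, though it was chosen with earlier results of these data known. Its members were matched by gene identifier among the 46603 identifiers counted in mouse liver. Of those identifiers 14661 had enough reads to be tested, and all 10 genes were among them.

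The counts come from bulk poly(A) RNA sequencing of liver from male mice aged 2 months, in 4 groups of 5 libraries. Wild type (WT) mice were C57BL/6J bought from a vendor. Knockout mice, EedHepKO (KO), carry Cre under the albumin promoter (Alb:Cre), which is active in hepatocytes, and Eed alleles (Eedflox) whose exons 3 and 6 are flanked by loxP. Baseline libraries hold lobes 1, 2 and 3, cut out in a partial hepatectomy (PHx) that takes most of the liver. Libraries after PHx hold the remaining lobes 4, 5 and 6, collected at 30 h (1 library per genotype), 40 h (2 libraries) or 48 h (2 libraries). No library of Cre-negative Eedflox mice or of Alb:Cre mice without floxed Eed is among the groups analysed here, so genotype cannot be told apart from colony of origin, and PHx cannot be told apart from lobe. EED is a core subunit of polycomb repressive complex 2 (PRC2), which silences genes by methylating histone H3, and the design asks what its loss from hepatocytes does in resting and in regenerating liver.

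As background, NRF2 (gene Nfe2l2) is held in the cytoplasm and passed to degradation by its adaptor KEAP1. Oxidants and electrophiles modify KEAP1, NRF2 then accumulates, enters the nucleus with a small MAF partner and binds antioxidant response elements near its target genes. Its targets in liver make glutathione (Gclc, Gclm), keep thioredoxin and peroxiredoxins reduced (Txnrd1, Srxn1), reduce quinones (Nqo1), break down haem (Hmox1) and couple glutathione to electrophiles (the Gsta and Gstm families).

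Total counts ran from 21634890 to 30461351 per library. Values per library are CPM, counts per 1000000 of the library total after TMM scaling, a factor that sets the bulk of genes level between libraries. Eed had 16.8 ± 1.09 CPM in WT and 5.64 ± 1.44 CPM in KO at baseline, and 18.4 ± 3.98 CPM in WT and 4.62 ± 1.14 CPM in KO after PHx (SD, n = 5 each). Every KO library lay below every WT library at both stages. The Eed log2 fold change was -1.57 at baseline and -1.99 after PHx (edgeR adjusted p 6.07e-05 and 4.39e-06). The count covers the whole gene and all liver cells, not the deleted exons alone. All 8 hepatocyte markers (Alb, Ttr, Apoa1 and 5 more) were counted in every group, and their summed level ran from 124500 to 144300 CPM in WT and from 84230 to 109900 CPM in KO at baseline. After PHx it ran from 80020 to 130500 CPM in WT and from 42960 to 101300 CPM in KO, with the highest KO value in replicate 12, the 30 h library. Markers of macrophages (10 genes) summed to between 170.0 and 296.5 CPM in WT and between 422 and 554 CPM in KO at baseline, and those of stellate cells (8 genes) to between 159 and 257 CPM and between 415 and 539.6 CPM. In bulk tissue, fewer cells of a type and less RNA per cell cannot be told apart. A cell-cycle list of 8 genes (Mki67, Top2a, Ccnd1 and others) summed to between 44.0 and 54.3 CPM in WT at baseline. After PHx the sum was 886, 72.9, 240.3, 47.0 and 1133 CPM in WT replicates 1 to 5, so WT replicate 4, taken at 48 h, lay within the WT baseline range. In KO it was 229 to 372 CPM at baseline, and 99.8, 110.5, 1269, 390.3 and 144 CPM in replicates 7, 8, 10, 11 and 12 after PHx. edgeR called 3 of the 8 higher in KO at baseline (list median 3.46), and after PHx against baseline all 8 in WT (5.54) and 0 in KO (1.20). Scaling by library size alone would raise the median log2 fold change of all genes by 0.48 at baseline and 0.38 after PHx, so directions are relative to the bulk of genes.

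A shared sequence feature of many NRF2 targets is the antioxidant response element, whose core is TGACNNNGC. It was searched on both strands in RefSeq promoter windows (GRCm38.p6, from 250 bases before to 50 bases after each start site). Of the 10 genes 7 matched 9 windows, while Gclc, Hmox1 and Gsta4 had no window and were not searched. The core was found in 1 window each of 3 genes, Gclm, Txnrd1 and Srxn1. Of all 32851 windows 12.4% hold the core, a share of windows and not of genes. The Gclm and Txnrd1 matches lie before the start site and are printed with the match in capitals, on the gene's own strand, so the core reads from the opposite strand.
Gclm: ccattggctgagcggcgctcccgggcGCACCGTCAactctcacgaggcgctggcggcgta
Txnrd1: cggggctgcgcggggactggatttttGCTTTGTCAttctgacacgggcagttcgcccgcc
The Gclm stretch is chr3:122245397-122245456, plus strand, in no annotated gene, with the match beginning 134 bases before the start. The Txnrd1 stretch is chr10:82859088-82859147, plus strand, with the match beginning 92 bases before 1 of its 3 RefSeq starts; it overlaps no exon and lies in an intron of a longer Txnrd1 transcript. The Srxn1 match lies inside the transcript. No match was found in the windows of Nqo1, Gsta1, Gsta2 and Gstm3. A match is a description of letters in a window and was not tested as a binding site.

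In mm10 (GENCODE M21) all 10 are protein coding. Gsta4 (chromosome 9, 78182774 to 78209349), Gsta1 (78230656 to 78242684) and Gsta2 (78331018 to 78355788) lie in 1 cluster on chromosome 9, which also carries Gclc (77754535 to 77794485). Gclm (122245557 to 122270732) and Gstm3 (107963696 to 107969283) are on chromosome 3, and Nqo1 (107388225 to 107403206) and Hmox1 (75093621 to 75100589) on chromosome 8. Txnrd1 is on chromosome 10 (82833951 to 82897712) and Srxn1 on chromosome 2 (152105516 to 152111376). Only reads that map to a single place were counted, and this bears on the transferase genes. Of the 75-base stretches of Gsta1 transcripts 84.7% also occur in another gene, 69.3% in Gm3776 alone. For Gsta2 the share was 36.6%, mostly with Gsta1, and for Gstm3 21.6%. For Gclm it was 2.84%, and for the other 6 it was 0. The read length, and where the reads of Gsta1 fall, are not given in the sources used here, so how far this lowers its counts, and how reads were split between Gsta1, Gsta2 and Gm3776, is uncertain. Exons of Gclm overlap the pseudogene Gm6061 on the same strand and Gm17494 on the other, and without strand in the counting the reads of Gm17494 and Gclm cannot be told apart.

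**Figure D1:**
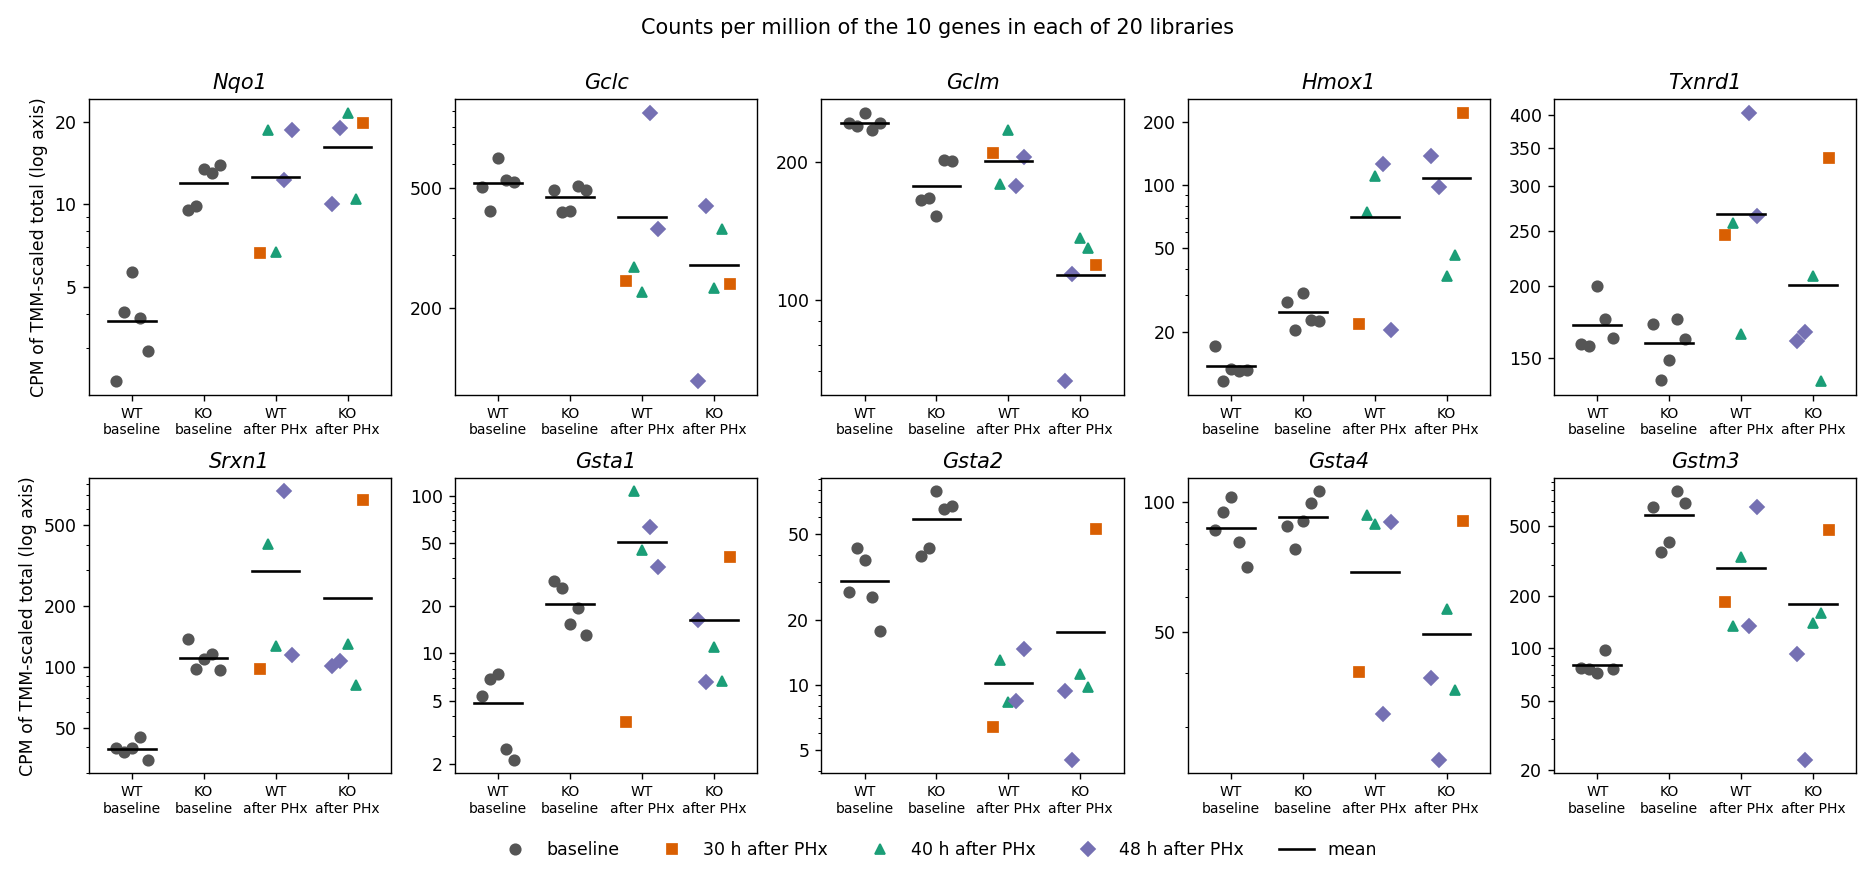
CPM (log axis) of each of the 10 genes in the 20 libraries, by group; symbols give the time after PHx and the line is the group mean. Nqo1 and Gstm3 lie higher in all 5 KO than in all 5 WT libraries at baseline.

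Per kilobase of exon, the level of Gclc, the catalytic subunit of the enzyme that starts glutathione synthesis, was the highest of the 10 in WT at baseline, at 139 ± 19.9 CPM per kb (SD, n = 5). Gsta4 (68.8 ± 9.70), Gstm3 (60.8 ± 7.60) and Gclm (38.8 ± 1.30 CPM per kb) came next, then Gsta2 (25.6 ± 8.61), Txnrd1 (24.1 ± 2.55) and Srxn1 (13.9 ± 1.31 CPM per kb). Hmox1 (7.79 ± 1.17), Gsta1 (5.07 ± 2.57) and Nqo1 (2.42 ± 0.826 CPM per kb) were the lowest. The neighbours Gsta4 and Gstm3, and Gsta2 and Txnrd1, differed by less than the larger SD of the pair. In KO at baseline Gstm3 stood first with 439 ± 143 CPM per kb, above Gclc with 124 ± 11.9 CPM per kb, and Nqo1 was again last with 7.70 ± 1.33 CPM per kb (SD, n = 5). Lengths are of all annotated exons, and the scale does not correct for reads of Gsta1, Gsta2 and Gstm3 that map to more than 1 place.

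KO and WT were compared at baseline to see what the knockout does in resting liver. Nqo1, Gsta1 and Gstm3 were called higher in KO, by 3.18-fold, 4.24-fold and 7.23-fold, and none of the 10 was called lower. A gene is called here where the p-value of edgeR's quasi-likelihood test, after Benjamini-Hochberg adjustment across the 14661 genes, is under 0.05. Of all genes tested 11.1% were called higher and 4.89% lower. The median log2 fold change of the 10 genes was 0.91, and that of all genes -0.03. At an unadjusted p under 0.05, 4 of the 10 were higher and 1 lower, as were 18.3% and 12.2% of all genes. DESeq2 called 4 higher and 0 lower, beside 14.6% and 6.14% of all genes. Markers of other cell types were higher in KO in the same comparison. Called higher were 5 of 8 stellate cell markers (Pdgfrb, Reln, Dcn, Col1a1 and Col3a1; list median 1.05), 3 of 10 macrophage markers (Cd68, Csf1r and Lyz2; 0.98), 2 of 6 lymphocyte and neutrophil markers (Ptprc and S100a8; 1.06), 1 of 6 cholangiocyte markers (Spp1; 1.59) and 1 of 7 endothelial markers (Cdh5; 0.44). Cholangiocyte markers summed to 34.1 to 79.1 CPM in WT and 73.8 to 384 CPM in KO. Called lower were 1 of 8 hepatocyte markers (Apoa1) and 1 of 5 red cell markers (Alas2). The part of these markers in the values of the 10 genes was not tested.

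Nqo1, a reductase that turns quinones into hydroquinones, had 2.27, 4.05, 5.66, 3.85 and 2.94 CPM in WT replicates 1 to 5. In KO replicates 7, 8, 10, 11 and 12 it had 9.56, 9.89, 13.5, 13.04 and 13.8 CPM. Every KO library lay above every WT library, for a log2 fold change of 1.67 with an SE of 0.33 (edgeR adjusted p 0.00177). The call held in each of the 20 fits that left out 1 library.

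Gstm3, a mu-class glutathione transferase, had 77.0, 76.1, 72.3, 97.2 and 75.9 CPM in the WT libraries in the same order. KO libraries had 647, 355, 405, 791 and 682 CPM. The lowest KO library stood at over 3 times the highest WT library. The log2 fold change was 2.85 (95% interval 1.65 to 4.06, edgeR adjusted p 0.00211), and this call too held in each of the 20 fits that left out 1 library.

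Gsta1, an alpha-class transferase, had 5.33, 6.90, 7.41, 2.48 and 2.11 CPM in WT. KO had 28.6, 25.9, 15.3, 19.5 and 13.1 CPM, with no overlap. The log2 fold change was 2.08 (95% interval 0.76 to 3.40, edgeR adjusted p 0.0296). Leaving out WT baseline replicate 1, 4 or 5 or KO baseline replicate 7 or 8 raised the adjusted p to 0.0541, 0.0780, 0.0753, 0.0648 and 0.0515, which ends the call.

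Groups did not overlap at baseline for 6 of the 10 genes and for 27.9% of all genes tested. Besides the 3 called genes these were Srxn1, Hmox1 and Gclm, which were not called. Srxn1, the sulfiredoxin that restores over-oxidised peroxiredoxins, had 39.5, 37.8, 39.8, 44.9 and 34.6 CPM in WT and 137, 97.5, 109, 115 and 95.7 CPM in KO. Its log2 fold change was 1.49 (edgeR adjusted p 0.0800). The fit shares 1 estimate of spread with the more variable libraries after PHx. Srxn1 was called in DESeq2 (1.52, adjusted p 0.0336), with library size alone (1.99, edgeR adjusted p 0.00973), when only the 10 baseline libraries were fitted (1.52, edgeR adjusted p 1.63e-06), and without KO PHx replicate 12 (1.49, edgeR adjusted p 0.0184) or WT PHx replicate 4 (1.56, edgeR adjusted p 0.0479).

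Hmox1, haem oxygenase, which is also strongly expressed in macrophages, had 17.1, 11.6, 13.3, 12.98 and 13.2 CPM in WT and 27.6, 20.3, 30.6, 22.8 and 22.4 CPM in KO at baseline. All KO libraries lay above all WT libraries, at a log2 fold change of 0.86 that was not called (edgeR adjusted p 0.230). It was called with only the 10 baseline libraries fitted (0.88, edgeR adjusted p 0.000375) and with library size alone (1.36, edgeR adjusted p 0.0328). The macrophage marker sums given above (170.0 to 296.5 CPM in WT, 422 to 554 CPM in KO) moved the same way, with 3 of 10 markers called higher and none at 0. Their part in the Hmox1 values was not tested.

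Gclm, the regulatory subunit for glutathione synthesis, had lower values in KO. WT libraries had 244, 239.8, 257, 235 and 244 CPM, and KO libraries 166, 167, 153, 202 and 201 CPM, all below WT. The log2 fold change of -0.46 was not called (edgeR adjusted p 0.0669). It was called with a term for time after PHx (-0.46, edgeR adjusted p 0.0484), with only the 10 baseline libraries fitted (-0.43, edgeR adjusted p 0.00386) and without KO PHx replicate 7 (-0.40, edgeR adjusted p 0.0399), and it lost its direction when counts were scaled by library size alone (0.02).

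The other 4 genes had overlapping groups at baseline and were not called. Gsta2, the alpha-class transferase next to Gsta1, had 17.7 to 42.9 CPM in WT and 39.4 to 78.7 CPM in KO (log2 fold change 0.96, edgeR adjusted p 0.179). Gsta2 was called at baseline without KO PHx replicate 12, the 30 h library (0.96, edgeR adjusted p 0.0291), with only the baseline libraries fitted (0.98, edgeR adjusted p 0.00614) and with library size alone (1.43, edgeR adjusted p 0.0185). Gclc had 419 to 629 CPM in WT and 416 to 509.6 CPM in KO (log2 fold change -0.16, 95% interval -0.88 to 0.55). Txnrd1, the cytosolic thioredoxin reductase, had 157 to 201 CPM in WT and 137 to 175 CPM in KO (log2 fold change -0.11, 95% interval -0.58 to 0.37). Gsta4, the alpha-class transferase for lipid aldehydes such as hydroxynonenal, had 70.8 to 102 CPM in WT and 77.8 to 106 CPM in KO (log2 fold change 0.08, 95% interval -0.56 to 0.72). Scaled by library size alone, Gclc and Txnrd1 had 0.32 and 0.38.

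**Figure D2:**
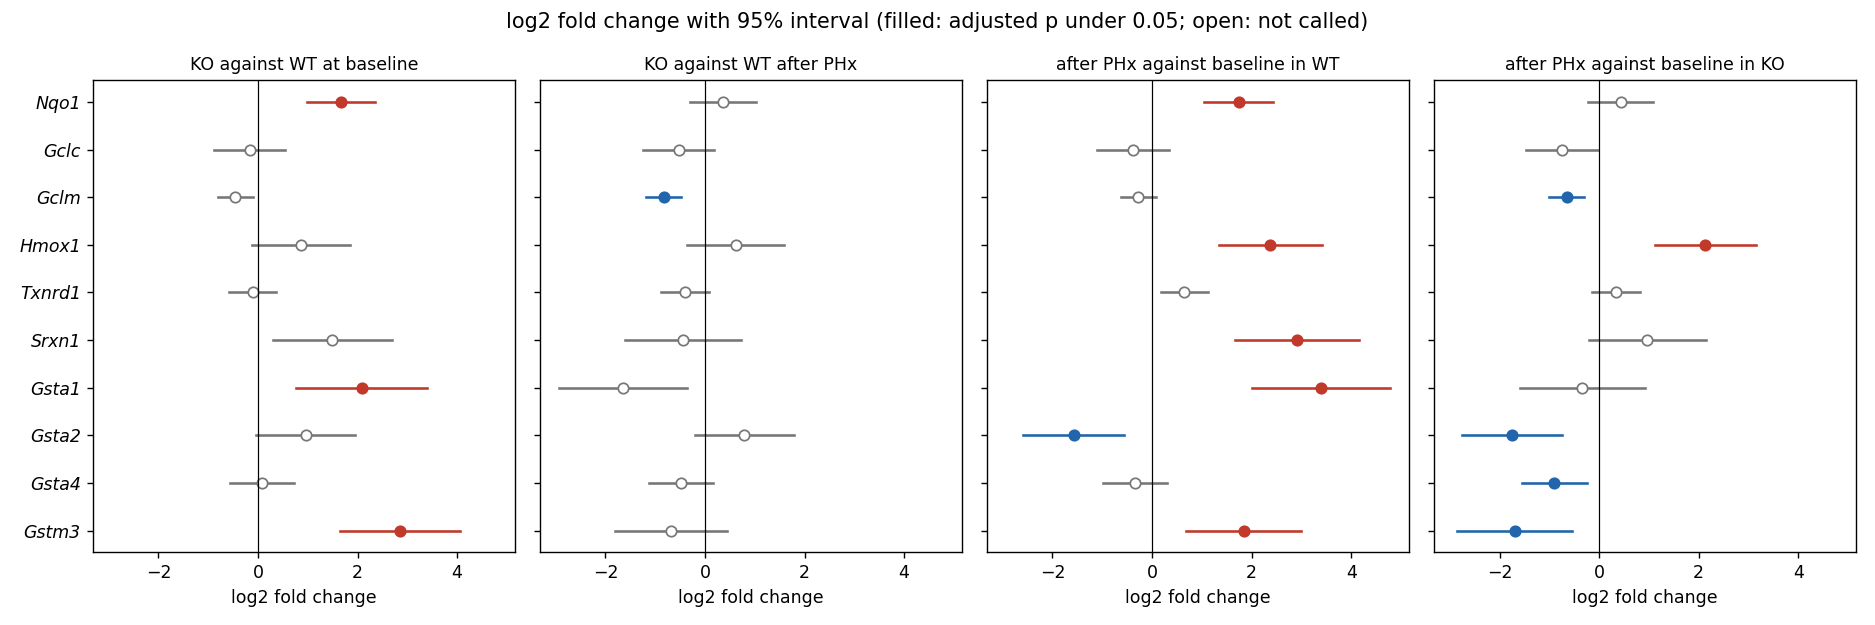
log2 fold change (x axis) of the 10 genes with the 95% interval in 4 comparisons; filled red points are called higher, filled blue points lower, and open points are not called. Gstm3 is called higher in KO at baseline and higher after PHx in WT, and lower after PHx in KO.

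In WT liver after PHx, 5 of the 10 genes rose above baseline, Nqo1, Hmox1, Srxn1, Gsta1 and Gstm3, and Gsta2 fell. Of all genes tested 11.4% were called higher and 8.68% lower. The median log2 change of the 10 genes was 1.19 against 0.04 for all genes. As background, the remaining lobes regrow by division of hepatocytes and other liver cells. Markers of other cell types moved with PHx in WT. Of 10 macrophage markers 2 rose (Cd68 and Marco) and 1 fell (Csf1r; list median -0.43), and their sum ran from 77.3 to 379 CPM after PHx against 170.0 to 296.5 CPM at baseline. Of 7 endothelial markers 2 fell (Kdr and Fcgr2b), the neutrophil genes S100a8 and S100a9 rose, the lymphocyte genes Ms4a1 and Nkg7, the hepatocyte gene Ttr and the red cell gene Alas2 fell, and none of 6 cholangiocyte markers was called. The part of these markers in the values of the 10 genes was not tested.

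Srxn1 had 97.0 CPM in the WT library at 30 h, 403 and 127 CPM at 40 h, and 733 and 114.5 CPM at 48 h. These lay above the highest WT baseline library (44.9 CPM) without exception, and differed among themselves by more than 7-fold. Srxn1 had a log2 change of 2.91 with an SE of 0.60 (edgeR adjusted p 0.00269). With single libraries left out this change ran from 2.30 to 3.16. Hmox1 had 21.7 CPM at 30 h, 74.8 and 110.5 CPM at 40 h, and 127 and 20.3 CPM at 48 h, all above the WT baseline libraries, with a log2 change of 2.38 (edgeR adjusted p 0.00277).

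Gsta1 had 3.66 CPM in the WT library at 30 h, which lies within the WT baseline range. At 40 h it had 106 and 45.5 CPM and at 48 h 62.9 and 35.5 CPM. The log2 change in WT was 3.39 (95% interval 2.01 to 4.78, edgeR adjusted p 0.00186). Nqo1 had 6.67 CPM at 30 h, 18.7 and 6.73 CPM at 40 h, and 12.2 and 18.6 CPM at 48 h, above all 5 WT baseline libraries, with a log2 change of 1.74 (edgeR adjusted p 0.00146).

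Gstm3 had 183 CPM at 30 h, 133 and 334 CPM at 40 h, and 134 and 645.5 CPM at 48 h in WT. All lay above the WT baseline libraries, and the log2 change was 1.84 (edgeR adjusted p 0.0245). With mouse as a block it was 1.63 (edgeR adjusted p 0.0737), so the call ended. It also ended without WT PHx replicate 5 (1.35, edgeR adjusted p 0.0830) and without WT baseline replicate 1, 2, 3 or 5 (adjusted p 0.0511, 0.0521, 0.0554 and 0.0526).

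Gsta2 fell in WT, from between 17.7 and 42.9 CPM at baseline to 6.37 CPM at 30 h, 13.05 and 8.29 CPM at 40 h, and 8.40 and 14.6 CPM at 48 h. No library after PHx reached the baseline range, and the log2 change was -1.57 (edgeR adjusted p 0.0274). The call ended without WT PHx replicate 1, 3 or 4 (adjusted p 0.0564, 0.0551 and 0.0835) or WT baseline replicate 2 or 3 (0.0670 and 0.0601).

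Txnrd1 had 246, 258, 165, 404 and 266 CPM in WT replicates 1 to 5 after PHx, with a log2 change of 0.65 (edgeR adjusted p 0.0518). Only replicate 3 lay within the WT baseline range. Txnrd1 was called without WT PHx replicate 3 (0.78, edgeR adjusted p 0.0221), without KO PHx replicate 7, 8, 11 or 12 (edgeR adjusted p 0.0393, 0.0461, 0.0379 and 0.0196) and in DESeq2 (0.68, adjusted p 0.0268). It was also called with the CPM filter (0.65, edgeR adjusted p 0.0469), a time term (0.64, 0.0365), only the WT libraries (0.69, 0.0336), library size alone (1.01, 0.00171) and no 30 h samples (0.68, 0.0229).

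Gclc (-0.38), Gclm (-0.27) and Gsta4 (-0.34) were not called in WT. In Gclc 1 library decided the value, since WT PHx replicate 4 had 891 CPM and the other 4 had 227.5 to 366 CPM. Without it the Gclc log2 change was -0.85 (edgeR adjusted p 0.0431). Groups did not overlap in WT for 5 of the 10 genes, Nqo1, Hmox1, Srxn1, Gsta2 and Gstm3, and for 17.8% of all genes tested.

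In KO liver after PHx 1 of the 10 genes rose, Hmox1, and 4 fell, Gclm, Gsta2, Gsta4 and Gstm3. Of all genes tested 17.5% were called higher and 12.1% lower. The median log2 change of the 10 genes was -0.49, beside 0.10 for all genes. Of 10 macrophage markers 4 fell in KO (Adgre1, Clec4f, Csf1r and Lyz2) and 1 rose (Marco; list median -0.79), and their sum went from between 422 and 554 CPM to between 90.5 and 393 CPM. Of 6 cholangiocyte markers 3 rose (Krt7, Krt19 and Epcam; list median 1.89). Of 7 endothelial markers 2 fell (Kdr and Fcgr2b) and 1 rose (Lyve1), of 8 stellate cell markers 2 fell (Lrat and Reln), and of 6 lymphocyte and neutrophil markers 3 fell (Ptprc, Ms4a1 and Nkg7), as did Ttr and Alas2. The part of these markers was not tested here either. With only the 10 KO libraries fitted none of the 4 that fell was called, with edgeR adjusted p of 0.0603 (Gclm), 0.0611 (Gsta2), 0.0721 (Gsta4) and 0.0785 (Gstm3).

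Hmox1 had 139 and 98.4 CPM at 48 h, 37.0 and 46.6 CPM at 40 h, and 222 CPM at 30 h in KO, each above the highest KO baseline library (30.6 CPM). Hmox1 had a log2 change of 2.13 with an SE of 0.49 in KO (edgeR adjusted p 0.00439). Without its 30 h library it was 1.69 (edgeR adjusted p 0.0126). The 30 h library was the highest of the 5 in KO and among the lowest in WT (21.7 CPM).

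Gstm3 had 92.6 and 22.9 CPM at 48 h, 139 and 159 CPM at 40 h, and 475.5 CPM at 30 h in KO. Only the 30 h library reached the KO baseline range of 355 to 791 CPM. The log2 change was -1.70 (95% interval -2.85 to -0.54, edgeR adjusted p 0.0278), and -2.48 without the 30 h library (0.00280). The call ended without KO PHx replicate 7, 8 or 11 (adjusted p 0.0821, 0.0552 and 0.0583) or KO baseline replicate 7, 11 or 12 (0.0564, 0.0615 and 0.0524).

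Gclm had 66.7 and 114 CPM at 48 h, 137 and 130.0 CPM at 40 h, and 119 CPM at 30 h in KO, below all KO baseline libraries. Its log2 change of -0.65 (edgeR adjusted p 0.00841) held in each of the 20 fits that left out 1 library. With library size alone as the scaling it was -0.38 (edgeR adjusted p 0.116).

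Gsta2 had 9.35 and 4.48 CPM at 48 h, 11.2 and 9.78 CPM at 40 h, and 52.8 CPM at 30 h in KO, with a log2 change of -1.75 (edgeR adjusted p 0.0126). The 30 h library lay within the KO baseline range, the other 4 far below it, and without it the Gsta2 change was -2.76 (edgeR adjusted p 8.94e-05). Gsta4 had 38.9 and 25.2 CPM at 48 h, 56.4 and 36.5 CPM at 40 h, and 90.4 CPM at 30 h, with a log2 change of -0.90 (edgeR adjusted p 0.0351), and -1.23 without the 30 h library (0.00571). Its call ended without KO PHx replicate 7, 8 or 11 (adjusted p 0.0997, 0.109 and 0.0861) or KO baseline replicate 7, 10, 11 or 12 (0.0638, 0.0559, 0.0657 and 0.0704), and with no filter on low counts (0.0540).

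Srxn1 had 101 and 106 CPM at 48 h, 129.6 and 80.8 CPM at 40 h, and 668 CPM at 30 h in KO. The first 4 lay within or just below the KO baseline range of 95.7 to 137 CPM. The log2 change was 0.97 (edgeR adjusted p 0.194), and -0.09 without replicate 12, the 30 h library (edgeR adjusted p 0.898). Gsta1 had 16.4, 6.59, 11.02, 6.73 and 40.9 CPM in KO replicates 7, 8, 10, 11 and 12 after PHx and was not called (log2 change -0.33, and -1.01 with an edgeR adjusted p of 0.205 without replicate 12).

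Nqo1 (0.43), Txnrd1 (0.34, and 0.08 without replicate 12) and Gclc (-0.75) were not called in KO. Without WT PHx replicate 4 the Gclc change in KO was called (-0.77, edgeR adjusted p 0.0296), and with library size alone Txnrd1 was called (0.53, edgeR adjusted p 0.0486). Groups did not overlap in KO for 2 of the 10 genes, Gclm and Hmox1, and for 13.9% of all genes tested.

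The WT and KO responses were compared as the difference between the 2 log2 changes, KO minus WT, in the same fit. edgeR called none of the 10 genes, against 0.389% of all genes in either direction, and the median of the 10 differences was -0.47 beside 0.00 for all genes. All 10 estimates were negative, though those of Gclc and Hmox1 turned to 0.07 and 0.01 without WT PHx replicate 4 and that of Gsta2 to 0.06 without KO PHx replicate 8. At an unadjusted p under 0.05 there were 4, all negative, beside 6.02% of all genes with a negative and 7.33% with a positive difference. DESeq2 called 2 of them, Gsta1 and Gstm3, and 2.49% of all genes in either direction. The 4 differences were -3.73 for Gsta1 (95% interval -5.57 to -1.89, edgeR adjusted p 0.0669), -3.54 for Gstm3 (-5.17 to -1.90, 0.0506), -1.94 for Srxn1 (-3.60 to -0.27, 0.293) and -1.31 for Nqo1 (-2.26 to -0.36, 0.213). In DESeq2 the adjusted p was 0.00223 for Gsta1 and 0.00107 for Gstm3. edgeR called Gstm3 with library size alone (0.0274), no filter (0.0484), the CPM filter (0.0478) and a time term (0.0364), and Gsta1 with library size alone (0.0386). With mouse as a block none of the 4 was called, with -4.51 for Gsta1, -3.86 for Gstm3, -2.34 for Srxn1 and -1.34 for Nqo1 (edgeR adjusted p 0.0505, 0.0980, 0.354 and 0.431).

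Single libraries decided these calls, in fits that share the same libraries. Gstm3 was called without KO PHx replicate 10 or 12 or WT PHx replicate 1 or 2 (edgeR adjusted p 0.0256, 0.0105, 0.0481 and 0.0467), Gsta1 without KO PHx replicate 10 or 12 or WT PHx replicate 1 (0.0344, 0.0299 and 0.0142), and Srxn1 without KO PHx replicate 12 (-2.99, edgeR adjusted p 0.0371). Over all fits that left out 1 library the difference ran from -4.32 to -3.01 for Gstm3 and from -4.41 to -3.27 for Gsta1. The share of all genes called lower was 0.225% over all libraries, 1.98% without KO PHx replicate 10, 0.241% without KO PHx replicate 12, 0.314% without WT PHx replicate 1 and 0.201% without WT PHx replicate 2. Without both 30 h libraries, a setting chosen after the values were seen, Srxn1, Gsta1 and Gstm3 were called (-3.22, -4.71 and -4.45; edgeR adjusted p 0.0130, 0.00237 and 0.00844), as 0.363% of all genes were called lower in that fit.

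The labels tie the lobes before and after PHx of 9 mice, 4 WT and 5 KO, to the same animal. Gstm3 was higher after PHx in 4 of 4 WT mice, with log2 changes of 0.46 to 3.07, and lower in 5 of 5 KO mice, with -3.90 to -0.52. Gsta1 was higher in 4 of 4 WT mice (2.47 to 4.20) and in 1 of 5 KO mice (-1.82 to 1.57), the one taken at 30 h. Hmox1 was higher in 4 of 4 WT and 5 of 5 KO mice, and Gclm lower in 4 of 4 and 5 of 5. Gsta2 was likewise lower in every mouse. These changes are on the scale of log2 of CPM plus 1.

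**Figure D3:**
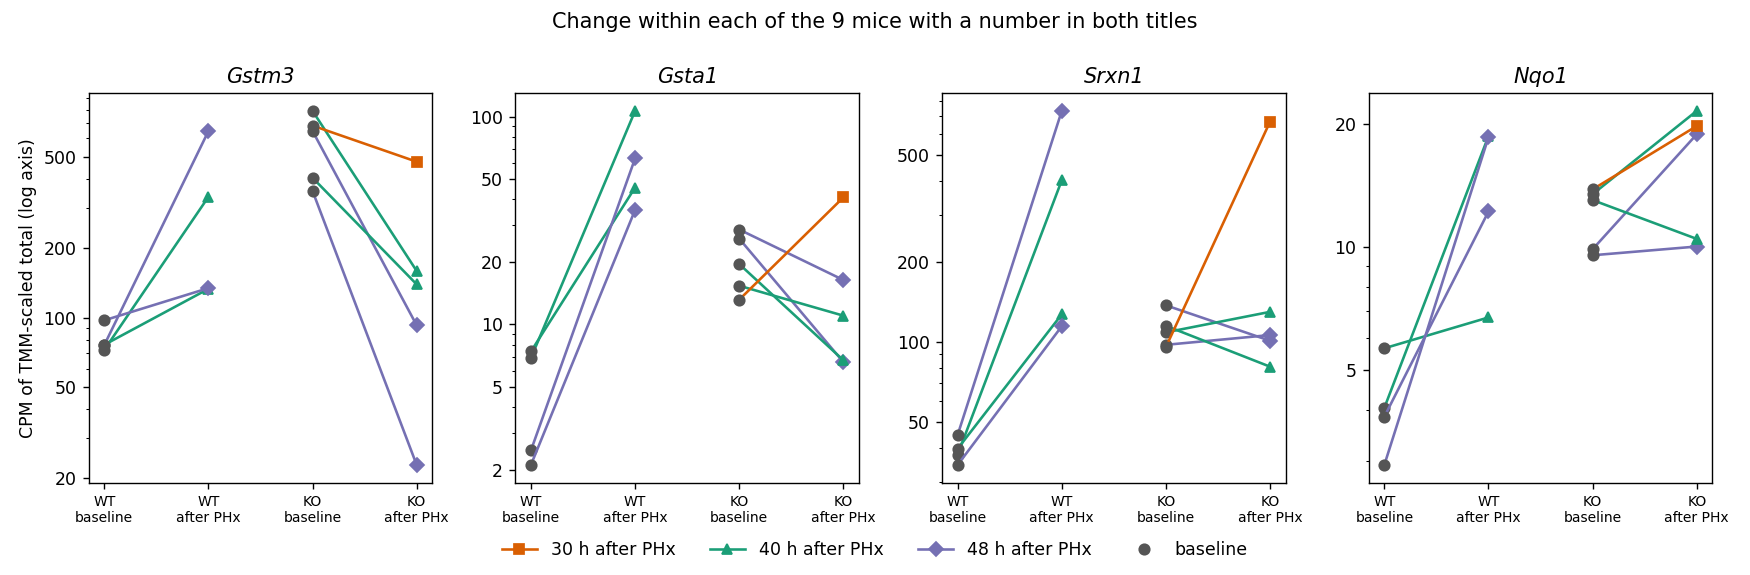
CPM (log axis) of Gstm3, Gsta1, Srxn1 and Nqo1 before and after PHx in the 9 mice with both libraries; each line is 1 mouse and its colour gives the time after PHx. Gstm3 lines climb in all 4 WT mice and drop in all 5 KO mice, and the 30 h KO mouse holds the highest Srxn1 and Gsta1 values among the KO mice after PHx.

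KO and WT were then compared after PHx, in regenerating liver. Of the 10 genes 1 was called lower in KO, Gclm, and 0 were called higher. Of all genes tested 8.20% were called lower and 16% higher. The median log2 fold change of the 10 genes was -0.46, and that of all genes -0.01. At an unadjusted p under 0.05 edgeR gave 2 lower, Gclm and Gsta1, and 0 higher, beside 14.9% and 21.6% of all genes. DESeq2 called 2 lower and 0 higher, beside 10.2% and 18.2% of all genes.

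Gclm had 210.1, 179, 236, 178 and 206 CPM in WT replicates 1 to 5 after PHx, against 66.7 to 137 CPM in KO. The groups did not overlap, as in 10% of all genes tested, and no other of the 10 genes had this. Gclm had a log2 fold change of -0.83 with an SE of 0.17 (edgeR adjusted p 0.00129), and this call held in each of the 20 fits that left out 1 library. Library size alone gave -0.45 (edgeR adjusted p 0.0745). The hepatocyte marker sums given above ran from 42960 to 101300 CPM in KO and from 80020 to 130500 CPM in WT, and cholangiocyte markers, 4 of 6 called higher, summed to 134 to 595 CPM in KO and 35.2 to 256 CPM in WT. Also called higher in KO after PHx were 3 of 8 stellate cell markers (Dcn, Col1a1 and Col3a1), 1 of 10 macrophage markers (Csf1r) and 1 of 7 endothelial markers (Cdh5), and called lower were 3 of 5 red cell markers (Hba-a2, Hbb-bt and Alas2; list median -1.07) and 1 of 8 hepatocyte markers (Apoa1). Their part in the result was not tested.

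Nqo1 and Gstm3, higher in KO at baseline, were not called after PHx, with log2 fold changes of 0.36 (95% interval -0.30 to 1.02) and -0.69 (-1.81 to 0.44). Gsta1 was at -1.64 (-2.93 to -0.36, edgeR adjusted p 0.0569). It was called without WT PHx replicate 1 (-1.95, edgeR adjusted p 0.00990) and in DESeq2 (-1.61, adjusted p 0.0284).

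The others were Gclc (-0.53), Hmox1 (0.62), Txnrd1 (-0.41), Srxn1 (-0.44), Gsta2 (0.78) and Gsta4 (-0.48), with edgeR adjusted p from 0.204 to 0.601. Srxn1 was at 0.26 without WT PHx replicate 4 and at -1.50 without KO PHx replicate 12 (edgeR adjusted p 0.0205).

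A single library, KO PHx replicate 12, the only KO library at 30 h, held the highest KO value after PHx of 7 of the 10 genes: Hmox1 (222 CPM), Txnrd1 (335 CPM), Srxn1 (668 CPM), Gsta1 (40.9 CPM), Gsta2 (52.8 CPM), Gsta4 (90.4 CPM) and Gstm3 (475.5 CPM). Without it, Txnrd1 (-0.67), Srxn1 (-1.50), Gsta1 (-2.32), Gsta4 (-0.81) and Gstm3 (-1.47) were called lower in KO beside Gclm, as were 8.01% of all genes tested. Leaving out the highest KO value of a gene lowers its KO mean in any case, and this library was singled out by those values. Its hepatocyte marker sum was 101300 CPM against 42960 to 77380 CPM in the other 4 KO libraries after PHx, and its macrophage marker sum was 175 CPM against 90.5 to 393 CPM. Their part in the result was not tested, and with 1 library per genotype at 30 h, time and animal cannot be told apart.

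Without both 30 h libraries, a setting chosen after the values were seen, the same 6 genes were called lower, and 6.85% of all genes tested. Their log2 fold changes were -0.84 for Gclm, -0.70 for Txnrd1, -1.73 for Srxn1, -2.62 for Gsta1, -0.96 for Gsta4 and -1.59 for Gstm3 (edgeR adjusted p 0.00482, 0.0258, 0.00626, 0.000486, 0.0198 and 0.0333). Hmox1 and Gsta2 changed sign, to -0.06 and -0.35, and were not called.

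In a fit that gave every time its own mean per genotype (2 libraries each at 40 h and at 48 h), Gsta1 was lower in KO at 40 h, at 6.73 and 11.02 CPM against 45.5 and 106 CPM in WT. The log2 fold change was -3.10 (95% interval -4.46 to -1.74, edgeR adjusted p 0.00747). It was the single call among the 10 genes at 40 h, where 4.68% of all genes tested were called lower, and 5 of the 10 had an unadjusted p under 0.05, all lower, beside 13.1% of all genes. At 40 h 2 of 8 hepatocyte markers (Alb and Apoa1) and 1 of 5 red cell markers (Alas2) were called lower, and 2 of 6 cholangiocyte markers (Krt19 and Epcam) and 1 of 8 stellate cell markers (Col3a1) higher. Of the 8 cell-cycle genes 2 were called higher in KO at 40 h (Mcm5 and Pcna; list median 3.42). The part of these genes in the result was not tested.

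At 48 h 5 of the 10 genes were called lower in KO, Gclm (-1.08), Txnrd1 (-1.03), Srxn1 (-2.03), Gsta1 (-2.10) and Gstm3 (-2.76), with edgeR adjusted p of 0.00506, 0.0117, 0.0220, 0.0224 and 0.00919. None was called higher. Of all genes tested 10.7% were called lower and 13.7% higher at 48 h. Of the hepatocyte markers 3 of 8 were called lower at 48 h (Alb, Hnf4a and Cps1; list median -0.53) and of the cholangiocyte markers 4 of 6 higher (Krt7, Epcam, Sox9 and Spp1; list median 3.09). Dcn and Cdh5 were called higher, Kdr and Alas2 lower, and none of 10 macrophage markers was called. Of the 8 cell-cycle genes 3 were called lower in KO at 48 h (Ccna2, Ccnb1 and Mcm5; list median -3.78). The part of these genes in the result was not tested. The 2 WT libraries behind these values differ, with Srxn1 at 733 and 114.5 CPM and Gstm3 at 134 and 645.5 CPM, and WT replicate 4 is the one with a cell-cycle sum in the WT baseline range. The KO libraries at 48 h had Srxn1 at 101 and 106 CPM and Gstm3 at 92.6 and 22.9 CPM. Whether 40 h and 48 h differ from each other was not tested, and the spread is borrowed from all 20 libraries.

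**Figure D4:**
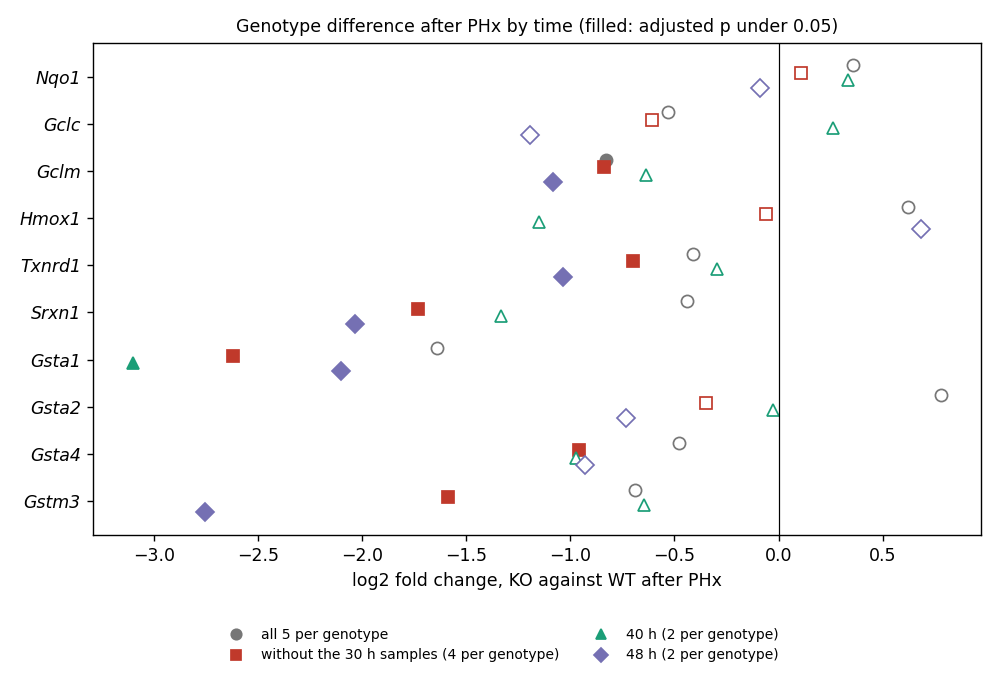
log2 fold change of KO against WT after PHx (x axis) for the 10 genes, over all 5 libraries per genotype, without the 30 h libraries, at 40 h and at 48 h. Filled points are called. Leaving out the 30 h libraries was chosen after the values were seen. Srxn1, Gsta1 and Gstm3 lie further below 0 without the 30 h libraries (-1.73, -2.62 and -1.59) than with them (-0.44, -1.64 and -0.69).

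Of 12 genes for NRF2 and its regulators, 0 were higher and 1 lower in KO at baseline, 1 was higher and 0 lower after PHx, and after PHx against baseline 1 rose in WT and 2 in KO. The list medians of these 4 comparisons were 0.00, 0.13, -0.01 and 0.13. Nfe2l2, the NRF2 gene, had 59.3 ± 13.3 CPM in WT and 76.5 ± 13.7 CPM in KO at baseline, and 90.7 ± 16.7 CPM in WT and 121 ± 41.4 CPM in KO after PHx (SD, n = 5). Genotype differences were not called (0.37 and 0.42), except with library size alone (0.86 and 0.81, edgeR adjusted p 0.0164 and 0.0192). The change after PHx was 0.61 in WT (edgeR adjusted p 0.0588) and 0.67 in KO (edgeR adjusted p 0.0321). The KO call ended without KO PHx replicate 7, 11 or 12 (adjusted p 0.0801, 0.0980 and 0.0560), without KO baseline replicate 8, 11 or 12 (0.0699, 0.0503 and 0.0848), and with mouse as a block (0.61, edgeR adjusted p 0.0718). It also ended with no filter (0.0603), only the KO libraries (0.0775) and no 30 h samples (0.0618). The WT change was called without WT PHx replicate 4 (0.73, edgeR adjusted p 0.0480), without KO PHx replicate 7, 8, 10 or 11 (adjusted p 0.0492, 0.0304, 0.0398 and 0.0356), in DESeq2 (0.64, adjusted p 0.0363), with only the WT libraries (0.65, edgeR adjusted p 0.0261) and with library size alone (0.98, edgeR adjusted p 0.00745).

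Keap1, its inhibitor, had 59.2 ± 4.63 CPM in WT and 52.9 ± 12.97 CPM in KO at baseline, and 55.5 ± 12.03 CPM in WT and 39.0 ± 10.8 CPM in KO after PHx (SD, n = 5). Keap1 was not called in the genotype comparisons over 5 libraries (-0.16 and -0.51) and was lower in KO at 48 h (-0.90, edgeR adjusted p 0.0198). DESeq2 called it lower in KO after PHx (-0.50, adjusted p 0.0499). Without KO PHx replicate 10 it was lower in KO after PHx in edgeR too (-0.68, adjusted p 0.00914) and fell in KO after PHx (-0.62, edgeR adjusted p 0.0146), and the latter was also called without KO baseline replicate 8 (-0.55, edgeR adjusted p 0.0476). An antisense gene, Gm16754, overlaps Keap1. mRNA levels do not report NRF2 protein, its location or its activity.

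**Figure D5:**
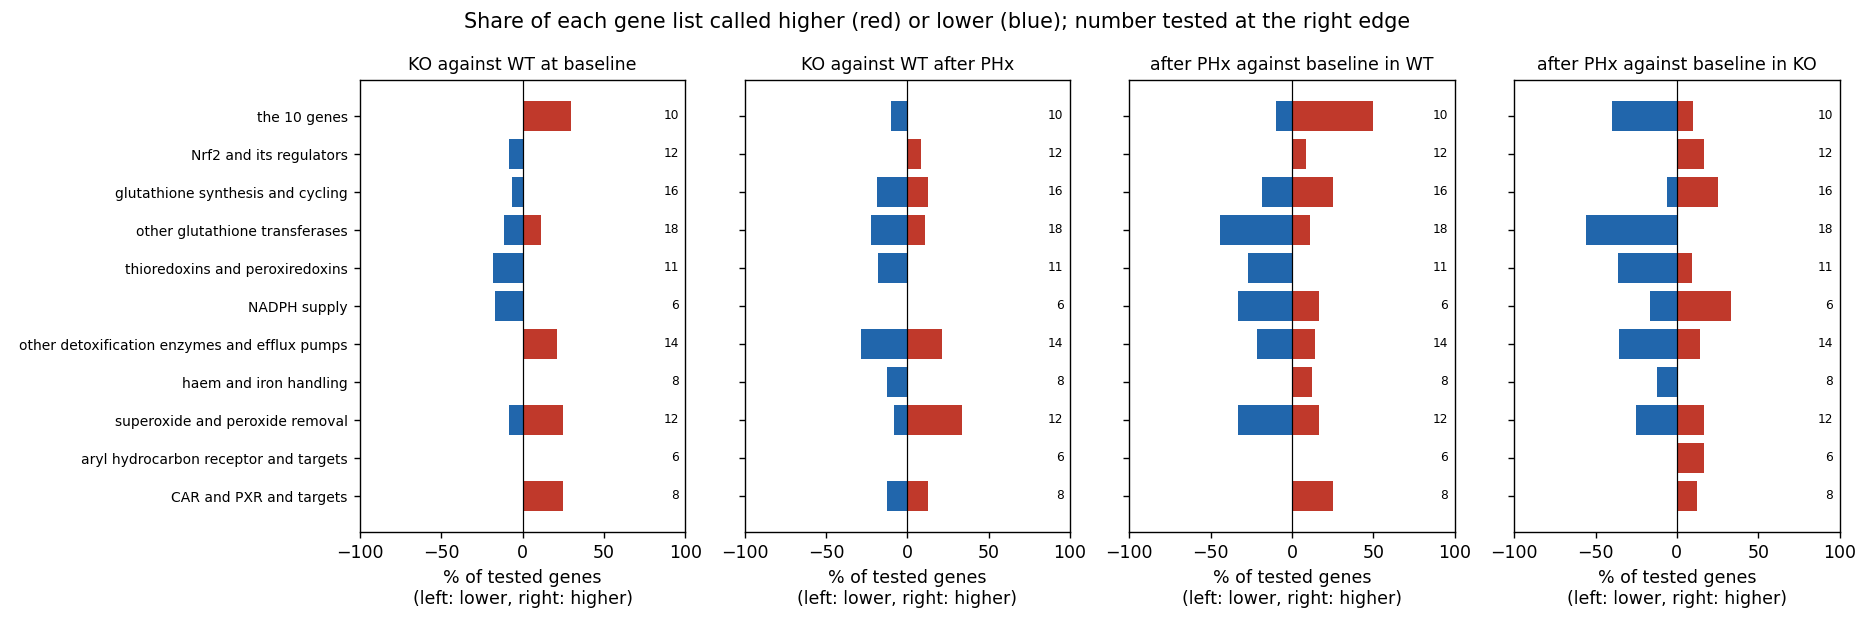
Share of each gene list called higher (red, right) or lower (blue, left) in 4 comparisons, in percent of the genes tested, whose number stands at the right edge. The other glutathione transferases have 8 of 18 genes called lower after PHx in WT and 10 of 18 in KO, beside 8.68% and 12.1% of all genes tested.

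Other genes of the pathway were taken from lists, and the list genes named with a value kept their call in each of the 20 fits that left out 1 library, a condition set after the values were seen. At baseline, of 18 other glutathione transferases 2 were higher in KO and 2 lower, with a median log2 fold change of -0.31 beside -0.03 for all genes. The shares over all genes tested were 11.1% and 4.89%, and no list was tested as a set. Gstm2, a mu-class transferase beside Gstm3, had 62.5 ± 11.4 CPM in WT and 161 ± 36.4 CPM in KO (log2 fold change 1.36, edgeR adjusted p 0.00852), and Gstm5 had 1.00. Gstp1, the abundant pi-class transferase of male mouse liver, had 1580.0 ± 151 and 621 ± 90.3 CPM (log2 fold change -1.35, edgeR adjusted p 0.00503).

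Of 14 other detoxification enzymes and efflux pumps 3 were higher and 0 lower in KO at baseline, beside 11.1% and 4.89% of all genes tested. The list median was -0.28. They were Cbr3, a carbonyl reductase (2.41, edgeR adjusted p 0.00122), and the export pumps Abcc1 (1.85, 0.000462) and Abcc4 (1.78). The same 3 were higher after PHx, with 4 other genes of the list lower, and Cbr3 had 2.81 and Abcc1 2.20 there.

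Of 12 genes for superoxide and peroxide removal 3 were higher and 1 lower at baseline, beside 11.1% and 4.89% of all genes tested. The list median was 0.13. Gpx3, a secreted glutathione peroxidase, had 2.96 ± 0.853 CPM in WT and 62.9 ± 44.7 CPM in KO (log2 fold change 4.41), and Sod3, extracellular superoxide dismutase, had 18.8 ± 1.36 and 49.1 ± 16.2 CPM (1.39; SD, n = 5). After PHx 4 were higher and 1 lower, with Gpx3 at 4.11 and Sod3 at 1.40.

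Of 11 thioredoxins and peroxiredoxins 0 were higher and 2 lower in KO at baseline, among them Txn1, thioredoxin (-0.60, edgeR adjusted p 0.00445; -0.13 with library size alone and -0.53 with no low-count filter, neither called, edgeR adjusted p 0.509 and 0.0512). The list medians were -0.49 at baseline and -0.51 after PHx, where all genes had -0.03 and -0.01. After PHx the counts were 0 and 2, with Txn1 at -0.76 and Prdx4, an endoplasmic reticulum peroxiredoxin, at -0.87 (not called with only the PHx libraries fitted, edgeR adjusted p 0.0958). Of 6 genes that supply NADPH 1 was lower at baseline, malic enzyme Me1 (-1.04; -0.55 and not called with library size alone), and none after PHx. Of 16 genes of glutathione synthesis and cycling 0 were higher and 1 lower at baseline, and 2 higher and 3 lower after PHx, with list medians of -0.05 and -0.39.

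Genes of other receptors that share targets with NRF2 were set beside these. Of 8 genes of the receptors CAR and PXR 2 were higher in KO at baseline, the cytochromes Cyp2b10 (6.89 ± 6.47 CPM in WT, 133 ± 78.6 CPM in KO, log2 fold change 4.27) and Cyp2c55 (3.51, edgeR adjusted p 0.0153). After PHx Cyp2b10 was higher (3.02) and the CAR gene Nr1i3 lower in KO, the latter called in 3 of the 20 fits that left out 1 library. Por, the reductase that supplies cytochromes with electrons, rose after PHx in WT (2.26) and in KO (1.57), and Nr1i2, the PXR gene, rose in WT (1.16). Of 6 genes of the aryl hydrocarbon receptor 0 were called in either direction between the genotypes at baseline or after PHx over 5 libraries each. At 40 h Cyp1a1 was higher in KO, and at 48 h Cyp1b1 was higher and Cyp1a2 lower. Tiparp, a target of this receptor, rose after PHx in KO (3.52, edgeR adjusted p 0.00522) and had 1.64 in WT, not called (edgeR adjusted p 0.143). Of 8 genes of haem and iron handling 0 at baseline and 1 lower after PHx, Slc48a1, a haem transporter (-0.65; -0.27 with library size alone and -0.63 with only the PHx libraries, neither called, edgeR adjusted p 0.248 and 0.0836).

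After PHx against baseline, of the 18 other transferases 2 rose and 8 fell in WT, and 0 rose and 10 fell in KO. The list medians were -0.80 and -0.89, beside 0.04 and 0.10 for all genes. Among all genes tested 11.4% rose and 8.68% fell in WT, and 17.5% rose and 12.1% fell in KO. Gsta3, another alpha-class gene, went from 1843 ± 178 to 316 ± 278 CPM in WT (-2.54) and Gstt1, a theta-class transferase, from 304 ± 46.1 to 109 ± 42.6 CPM (-1.47). Gstm6 fell in KO by 1.72 and Gstm4 fell by 1.71 on the log2 scale. Of the 12 genes for superoxide and peroxide removal 2 rose and 4 fell in WT, and 2 rose and 3 fell in KO. Catalase, Cat, fell from 4709 ± 278 to 1311 ± 480 CPM in WT (-1.84) and from 2890.0 ± 627 to 852.5 ± 405 CPM in KO (-1.76). Gpx3 of the same list rose in WT (2.33) and in KO (2.04). Glo1, glyoxalase, of the glutathione synthesis and cycling list, had -1.83 in WT and -1.66 in KO.

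Of the 16 genes of glutathione synthesis and cycling 4 rose and 3 fell in WT, beside 11.4% and 8.68% of all genes. In KO 4 rose and 1 fell, beside 17.5% and 12.1% of all genes. Slc7a11, the cystine importer that limits glutathione synthesis in many cells, averaged 0.00917 CPM in WT and 0.0355 CPM in KO at baseline, and 3.30 ± 4.24 and 2.05 ± 1.92 CPM after PHx (SD, n = 5). Both rises were called (edgeR adjusted p 0.00578 and 0.0112), and no fold is given against so few reads. Its partner Slc3a2 rose in KO (1.82, edgeR adjusted p 0.00159). The difference between the WT and KO responses was called in edgeR for 0 genes of each of these lists, and for 0.389% of all genes tested. At that share, lists of this length would seldom hold a call.

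Over the 20 libraries, the gene with the pattern most like that of each of the 10 was found by Pearson r of log2 of CPM plus 1 among 12501 others. The nearest to Gclm was Creg1 (r = 0.97), to Hmox1 the metallothionein Mt1 (0.95), to Srxn1 the keratin Krt8 (0.93), to Gstm3 its neighbour Gstm2 (0.92), and to Gsta2 Reln (0.92). For Gsta1 it was Ildr2 (0.89), for Txnrd1 Nucks1 (0.88), for Gsta4 H2-Q10 (0.88), for Nqo1 Fkbp1a (0.86) and for Gclc Cldn1 (0.79). Among the 10 genes themselves, the highest r was 0.81 between Srxn1 and Gsta1, and the lowest -0.68 between Gclm and Hmox1. The libraries share groups and some share an animal, so these r values describe the set and are not tests.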

How the data were processed

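Liver RNA was sequenced in 20 libraries, 5 in each of 4 groups given by the labels. The authors deposited raw counts of reads per Ensembl gene, 1 table per library, with no normalisation. Per the design text, RNA with an integrity number above 8 and 1000 ng per library went through TruSeq preparation and paired-end sequencing on a NovaSeq 6000, reads were checked with FastQC 0.11.5 and trimmed with fastp 0.20.0, and reads mapped to a single place on mm10 were counted. The submitters' processing notes name Trimmomatic 0.36 instead. Which aligner, counter, strandedness and gene annotation were used is not given in the sources used here.

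Symbols came from GENCODE M21, which holds 46005 of the 46603 identifiers. Promoter windows came from RefSeq. edgeR 4.0.16 (quasi-likelihood, two-sided, TMM, filterByExpr) in R 4.3.3 was fitted once to all 20 libraries with 4 group means, and 5 contrasts were taken, with Benjamini-Hochberg adjustment over 14661 genes. A second fit gave 40 h and 48 h. Neither fit has a mouse term, so libraries before and after PHx of the same mouse enter as independent, and p-values measure the spread between libraries. In the first fit that spread mixes 30 h, 40 h and 48 h after PHx. Alternatives were library size alone, no filter, a filter at 1 CPM, a time term, only the groups compared, DESeq2 1.42.0, each library left out, and mouse as a block.

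Same-numbered libraries before and after PHx come from the same animal per the labels (9 mice). The title of WT baseline replicate 1 has no number. Residual correlations within mice ran from -0.06 to 0.20. The 10 genes are named in each of the 5 contrasts, list genes come from up to 3 called genes per list and contrast with the largest change and at least 1 CPM, and Nfe2l2, Keap1, Eed and the most similar gene to each of the 10 are always named. Members and lists were chosen with earlier results of these data known.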

Additional observations from a re-analysis of the deposited data

Results flagged for a closer look

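A library was marked as far from the other 4 where its gap to the next exceeded 0.71 of the range of its set. That marks about 1 in 20 sets of independent normal values, which CPM sets from shared libraries are not. Among 40 sets of 5 libraries (10 genes in 4 groups), 5 held 1 marked library. Of these, 3 were KO PHx replicate 12, the 30 h library: Srxn1 at 668 CPM with the next at 129.6 CPM, Gsta2 at 52.8 CPM with the next at 11.2 CPM, and Gsta1 at 40.9 CPM with the next at 16.4 CPM. Gclc in WT PHx replicate 4 (48 h) was 891 CPM with the next at 366 CPM. Gstm3 in WT baseline replicate 4 was 97.2 CPM with the next at 77.0 CPM.

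Gstm3 moved in opposite directions in the 2 genotypes, up in each of the 4 numbered WT mice and down in each of the 5 KO mice. Over all 20 libraries, with no mouse term, the difference was -3.54 on the log2 scale (edgeR adjusted p 0.0506). With mouse as a block, in the numbered mice alone, it was not called either (edgeR adjusted p 0.0980).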

How the results depend on the processing

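Numbers of the 10 genes called moved as follows, and the cause was not tested beyond the smaller numbers of libraries or genes where stated. At baseline the 3 called higher became 4 in DESeq2, 6 with library size alone, 6 with only the groups compared and 5 without the 30 h samples, while the share of all genes called higher went from 11.1% to 14.6%, 24%, 21.4% and 12.4% in that order, and the 0 called lower became 1 with a time term and 1 with only the groups compared (all genes 4.89% to 5.99% and 18%). After PHx the 1 called lower in KO became 0 with library size alone, 2 in DESeq2 and 6 without the 30 h samples (all genes 8.20% to 2.02%, 10.2% and 6.85%). For the response in WT the 5 called higher became 6 with library size alone, the CPM filter, a time term, only the groups compared, DESeq2 and without the 30 h samples (all genes 11.4% to 25.9%, 12.4%, 11.6%, 13%, 15.5% and 12.7%), and 4 with the mouse block (5.90%). For the response in KO the 1 called higher became 2 with library size alone (all genes 17.5% to 27.7%), and the 4 called lower became 0 with only the groups compared and 3 with library size alone or no filter (all genes 12.1% to 7.54%, 6.55% and 5.70%). For the difference between responses the 0 called lower became 2 with library size alone, 2 in DESeq2, 1 each without a filter, with the CPM filter and with the time term, and 3 without the 30 h samples, a setting chosen after seeing the data (all genes 0.225% to 0.327%, 1.21%, 0.137%, 0.262%, 0.382% and 0.363%).

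Leaving out each library in turn gave 2 to 5 higher and 0 to 1 lower at baseline, 0 to 0 higher and 1 to 6 lower after PHx, 4 to 6 higher and 0 to 1 lower for WT, 1 to 1 higher and 2 to 5 lower for KO, and 0 to 0 higher and 0 to 3 lower for the difference. Of all genes these fits called 8.24% to 12.7% higher and 2.07% to 6.25% lower at baseline, 13.1% to 19.9% and 5.12% to 14.4% after PHx, 8.26% to 13.6% and 5.06% to 9.74% for WT, 12.1% to 22.8% and 7.43% to 17.6% for KO, and 0.0402% to 2.76% and 0.100% to 1.98% for the difference.

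Signs turned in uncalled values. With library size alone these were, at baseline, Gclc 0.32, Gclm 0.02, Txnrd1 0.38 and Keap1 0.30; in the WT response Gclm 0.09, Gsta4 0.02 and Keap1 0.28; and in the difference Nfe2l2 -0.05, which was -0.04 without a filter and -0.11 with the mouse block. Without the 30 h samples Hmox1 was -0.06 and Gsta2 -0.35 in KO against WT after PHx, and Srxn1 was -0.09 in the KO response. With single libraries left out, Srxn1 in KO against WT after PHx ran from -1.50 to 0.26, Gsta2 there from -0.23 to 1.06, Srxn1 in the KO response from -0.09 to 1.22, and the differences of Gclc from -0.63 to 0.07, Hmox1 from -0.68 to 0.01, Gsta2 from -1.18 to 0.06 and Nfe2l2 from -0.16 to 0.17.

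Library size alone moved the median of all genes by 0.48 at baseline, 0.38 after PHx, 0.36 in WT and 0.27 in KO, and the share of calls that were higher from 69.5% to 96.9%, 66.1% to 92.9%, 56.8% to 86.7% and 59.1% to 80.9%, and for the difference from 42.1% to 15.8%. With mouse as a replicate block, 1 of 30 results of the 10 genes lost its call, Gstm3 in WT (1.63), and no other changed. Depth was least for Nqo1 (lowest count 35) and Gsta1 (lowest count 46 in a WT baseline library).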
